A study of Mus musculus with 12 samples.

Results

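The genes described here are the type I interferon-stimulated antiviral genes, a named list of 35 genes whose transcription is switched on when a cell senses interferon-alpha or interferon-beta. A gene entered the analysis if the array held a probe cluster (the set of probes that reads 1 transcript) annotated to that gene and no other, and 33 of the 35 did, out of 19752 genes measured the same way. Isg15, whose cluster also carries a second gene symbol, and Ifi44 were not analysed here. Of the 33 genes, 29 were brighter than the median gene of the array, and Mx1, Mx2, Oas3 and Dhx58 were dimmer.

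The RNA came from whole tibialis anterior muscle, a shin muscle, of C57BL/6 mice aged 8 weeks. At day 0 every muscle was injured by injecting cardiotoxin, a snake venom toxin that kills muscle fibres, and every mouse was given diphtheria toxin on alternate days until the muscle was taken. Mice labelled Foxp3-DTR+ carry a diphtheria toxin receptor driven by Foxp3, the factor that defines regulatory T (Treg) cells, so that the toxin removes those cells, whereas Foxp3-DTR- mice lack the receptor and keep them. Amphiregulin (AREG), a growth factor that signals through the EGF receptor, or PBS (buffered saline) was injected into the muscle on day 0 and then into the abdominal cavity on alternate days. The 4 groups, with 3 arrays each, were Foxp3-DTR- muscle at day 4 with PBS or with AREG, and Foxp3-DTR+ muscle at day 8 with PBS or with AREG. The design holds neither Foxp3-DTR+ muscle at day 4 nor Foxp3-DTR- muscle at day 8, so the day after injury and the loss of Treg cells cannot be told apart. It also holds no uninjured muscle and no muscle without diphtheria toxin. The labels do not say whether the arrays of a group were separate animals, and the p-values then measure only the spread between these arrays.

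All values below are the deposited array intensities on the log2 scale, so that equal differences are equal ratios. Median intensity ranged from 133.7 to 143.2 over the 12 arrays. The replicate 1 arrays of both day 4 groups had the narrowest spread of values, with an interquartile range of 2.19 log2 units with AREG and 2.37 with PBS against 2.5 to 2.72 in the other arrays. The 8 muscle fibre markers averaged 13.10 to 13.32 in every array, and all lay above the median level of genes. Foxp3 itself read 6.49 to 6.75 in all 12 arrays and did not separate the genotypes. Its change from the day 4 to the day 8 PBS group was -0.02, with a 95% interval of -0.25 to 0.21. Of the 6 regulatory T cell markers, 1 was brighter than the median gene, so these levels give no check of the depletion. Between the PBS groups 5 of the 6 were higher at day 8, against 41.3% of all genes. The test (limma) called 2 higher, against 1.19% of all genes. They were Il2ra, by 0.99 ± 0.11, and Ctla4, by 0.61 ± 0.12 (SE), genes that other activated T cells also express. The mean of the 6 ran from 6.39 to 6.51 at day 4 and from 6.81 to 6.85 at day 8.

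Type I interferons bind the receptor made of IFNAR1 and IFNAR2, and the kinases JAK1 and TYK2 then activate STAT2. It acts with IRF9 in the complex ISGF3, which binds the interferon-stimulated response element in target promoters. The targets include sensors of foreign nucleic acid, factors that amplify the signal such as IRF7, and effectors that block viral entry, translation, replication or release. In injured muscle the tissue holds fibres, stromal cells and invading leukocytes, and macrophages and other leukocytes are among the cells that can both make and answer interferon.

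To show the element that this class of gene is known for, promoter windows were read from RefSeq (GRCm38.p6), from 250 bases before to 50 bases after the transcription start. A window was held for 23 of the 33 genes. The core of the element (GAAA, any 2 bases, GAAA), searched on both strands, was present in 10 of the 23 (43.5%), against 1079 of all 27025 genes with a window (3.99%). The 10 were Bst2, Eif2ak2, Ifih1, Ifit1, Ifit3, Oas1a, Oas3, Rsad2, Stat2 and Trim30a. A second motif (TTC, any 3 bases, GAA), a palindrome found in interferon-gamma response elements, reads the same on both strands and was added after the results were known. It was present in 5 of the 23 (21.7%; Bst2, Eif2ak2, Ifi35, Ifit2 and Oas1a) against 9.55% of all genes. These matches describe letters in a short window and do not show binding. The 7 windows printed here belong to genes that the results turn on. Ifit1 (chr19:34640639-34640938, plus strand) holds the core at bases 147 and 166 of the window, and Ifit3 (chr19:34583279-34583578, plus strand) holds it at bases 95 and 129. Oas1a (chr5:120907476-120907775, minus strand) holds an overlapping pair that starts at bases 231 and 237. Ifih1 (chr2:62646206-62646505, minus strand) has a match at base 283 and Stat2 (chr10:128270248-128270547, plus strand) at base 29. Oasl2 (chr5:114896684-114896983, plus strand) and Herc6 (chr6:57580742-57581041, plus strand), each among the genes called below, hold no match in this window. Each sequence runs 5′ to 3′ on the gene's strand, and capitals mark the core or its reverse complement.
Ifit1: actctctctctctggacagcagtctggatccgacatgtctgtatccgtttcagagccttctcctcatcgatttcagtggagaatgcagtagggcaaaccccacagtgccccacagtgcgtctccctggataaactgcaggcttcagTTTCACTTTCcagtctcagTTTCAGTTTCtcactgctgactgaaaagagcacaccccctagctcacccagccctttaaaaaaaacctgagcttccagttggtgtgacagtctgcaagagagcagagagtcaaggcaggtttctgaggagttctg
Ifit3: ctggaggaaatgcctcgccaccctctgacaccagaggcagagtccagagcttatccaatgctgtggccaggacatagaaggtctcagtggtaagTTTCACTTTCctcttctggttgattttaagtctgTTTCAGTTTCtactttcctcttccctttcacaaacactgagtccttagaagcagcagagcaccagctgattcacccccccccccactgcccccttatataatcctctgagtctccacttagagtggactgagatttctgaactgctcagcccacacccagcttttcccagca
Oas1a: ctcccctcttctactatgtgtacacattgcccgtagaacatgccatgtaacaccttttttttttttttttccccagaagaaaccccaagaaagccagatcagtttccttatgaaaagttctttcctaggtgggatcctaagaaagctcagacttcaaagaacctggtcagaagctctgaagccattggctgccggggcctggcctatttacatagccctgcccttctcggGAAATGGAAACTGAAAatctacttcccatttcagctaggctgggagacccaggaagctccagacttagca
Ifih1: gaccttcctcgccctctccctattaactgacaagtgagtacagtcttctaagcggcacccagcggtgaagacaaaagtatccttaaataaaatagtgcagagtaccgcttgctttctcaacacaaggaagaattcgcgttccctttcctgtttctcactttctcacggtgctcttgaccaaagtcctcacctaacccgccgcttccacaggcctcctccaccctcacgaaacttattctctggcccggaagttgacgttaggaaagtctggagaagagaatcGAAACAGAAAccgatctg
Stat2: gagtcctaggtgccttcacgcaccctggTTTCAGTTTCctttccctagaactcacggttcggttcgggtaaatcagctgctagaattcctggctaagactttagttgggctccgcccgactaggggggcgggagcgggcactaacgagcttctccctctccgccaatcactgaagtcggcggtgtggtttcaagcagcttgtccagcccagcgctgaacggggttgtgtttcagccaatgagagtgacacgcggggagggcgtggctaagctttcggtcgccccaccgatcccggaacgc
Oasl2: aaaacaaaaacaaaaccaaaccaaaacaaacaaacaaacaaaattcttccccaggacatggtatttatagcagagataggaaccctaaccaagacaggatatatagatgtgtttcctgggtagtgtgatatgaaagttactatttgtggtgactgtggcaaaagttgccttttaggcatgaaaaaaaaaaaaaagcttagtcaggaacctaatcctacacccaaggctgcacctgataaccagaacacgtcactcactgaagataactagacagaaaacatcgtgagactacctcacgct
Herc6: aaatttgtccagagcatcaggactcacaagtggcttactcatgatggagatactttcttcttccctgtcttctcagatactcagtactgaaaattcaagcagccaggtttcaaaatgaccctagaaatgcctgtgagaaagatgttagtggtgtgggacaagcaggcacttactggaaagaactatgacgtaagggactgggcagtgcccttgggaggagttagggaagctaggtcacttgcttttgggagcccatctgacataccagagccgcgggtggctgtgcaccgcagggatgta

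In Foxp3-DTR- muscle at day 4, the level of all 33 antiviral genes was lower with AREG than with PBS, and 3 of them fell past the test: Oasl2, Rtp4 and Tor3a. The falls were 1.77-fold for Oasl2, 1.70-fold for Rtp4 and 1.47-fold for Tor3a (limma, adjusted over all 19752 genes). Of all genes, 2.11% were called lower in this comparison, against 3 of the 33 (9.09%). The median difference of the 33 genes was -0.35 log2 units, with a range of -0.83 to -0.14, beside a median of 0.04 over all genes. A change below 0 was seen in 40.9% of all genes.

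Oasl2, a member of the oligoadenylate synthetase family, read 8.79, 9.06 and 9.23 with PBS and 7.99, 8.67 and 7.94 with AREG. All 3 AREG arrays lay below all 3 PBS arrays, with replicate 2 of the AREG group nearest to them. The difference was -0.83 ± 0.19 log2 units (SE, n = 3 and 3; limma adjusted p = 0.0338). Rtp4, an interferon-induced protein that helps to carry certain receptors to the cell surface, read 8.07, 7.94 and 8.09 with PBS and 7.15, 7.67 and 7.01 with AREG. The groups did not overlap, and the difference was -0.76 ± 0.17 (SE; limma adjusted p = 0.0335). Tor3a, an interferon-responsive member of the torsin family of ATPases, read 8.42, 8.50 and 8.47 with PBS and 7.72, 8.14 and 7.86 with AREG. Here too every AREG array was below every PBS array, and the difference was -0.56 ± 0.13 (SE; limma adjusted p = 0.0338).

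**Figure D1:**
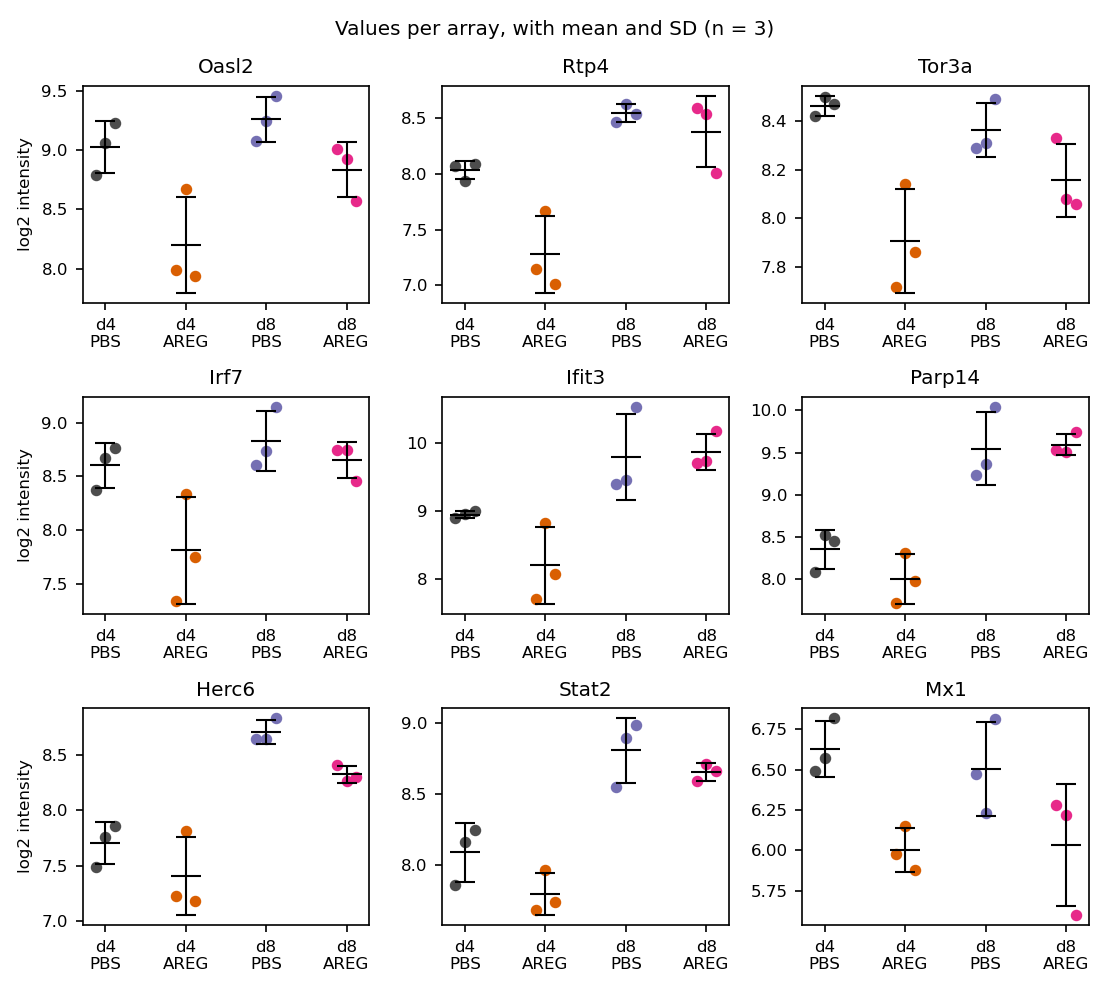
Log2 intensity (y axis) of 9 antiviral genes in each of the 12 arrays, by group; points are arrays and bars give mean ± SD (n = 3). Oasl2, Rtp4 and Tor3a show day 4 AREG arrays below all day 4 PBS arrays, whereas Parp14, Herc6 and Stat2 show day 8 arrays above all day 4 arrays.

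The day 4 replicate numbers were taken as pairs, although the labels do not give a pairing. Deviations from the group means correlated by 0.558, 0.201 and 0.511 between same-numbered PBS and AREG arrays. Between differently numbered arrays they correlated by -0.486 to 0.27, and the 0.27 (PBS replicate 3 with AREG replicate 2) exceeded the same-numbered 0.201. The block therefore rests on an assumption drawn from these same arrays. With the replicate number as a block, 6 of the 33 genes were called lower rather than 3. Of all genes, 609 rather than 417 were called lower. The 3 additions were Irf7 (adjusted p = 0.0349 with the block and 0.055 without it), Oas1a (0.0464 and 0.0603) and Trim30a (0.048 and 0.0848), all from limma. Irf7, the transcription factor that amplifies the interferon response, read 8.37, 8.67 and 8.77 with PBS and 7.34, 8.34 and 7.75 with AREG. Its AREG arrays lay below its PBS arrays, but replicate 2 with AREG came within 0.1 of the lowest PBS array. Oas1a, which makes the oligoadenylates that activate RNase L, read 7.56, 7.75 and 7.71 with PBS and 7.13, 7.27 and 6.16 with AREG. The groups did not overlap, and replicate 3 with AREG was far below the others. Trim30a, a ubiquitin ligase of the tripartite motif family, read 8.88, 9.15 and 9.36 with PBS and 8.04, 8.90 and 8.43 with AREG, and its groups overlapped in replicate 2.

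By role, the day 4 differences of the remaining genes were as follows. Among the signalling factors, Stat2 differed by -0.29 and Irf9 by -0.36, neither past the test. Of the sensors of foreign nucleic acid, Dhx58 differed by -0.69 (limma adjusted p = 0.0899), Zbp1 by -0.41 and Ifih1 by -0.28. The IFIT proteins, which bind foreign RNA and block its translation, had differences of -0.77 (Ifit1), -0.75 (Ifit3) and -0.43 (Ifit2). Ifit1 read 8.21, 8.16 and 8.29 with PBS and 7.05, 8.16 and 7.12 with AREG. Replicate 2 with AREG sat at the PBS level while the other AREG arrays were more than 1 log2 unit lower, and the difference did not pass the test (limma adjusted p = 0.11). Mx1, a dynamin-like GTPase whose gene is disrupted in most inbred mouse strains, differed by -0.62 (limma adjusted p = 0.0773), and its relative Mx2 by -0.14. The oligoadenylate synthetase relatives Oas2, Oas3 and Oasl1 differed by -0.47, -0.30 and -0.24. Usp18, which removes the modifier ISG15 from proteins and restrains receptor signalling, differed by -0.35. Of the enzymes of ubiquitin and ADP-ribose transfer other than Trim30a, all 5 lay between -0.35 and -0.29. The 7 other effectors, Rsad2, Cmpk2, Bst2, Eif2ak2, Samd9l, Xaf1 and Sp100, lay between -0.45 (Eif2ak2, the RNA-activated kinase PKR) and -0.18 (Sp100). Ifi35, grouped with Rtp4 and Tor3a as other induced genes, differed by -0.14 (limma adjusted p = 0.615).

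In all, 18 of the 33 genes had an unadjusted p under 0.05 with a negative difference, against 9.73% of all genes, and 11 of 33 had AREG arrays entirely below the PBS arrays, against 12% of all genes. Replicate 2 of the AREG group was the highest AREG array for 29 of the 33 genes, which held for 24% of all genes. Without that array 7 of the 33 and 275 of all genes were called lower, against 3 and 417 in the reported fit. None of the 33 was called without replicate 1 or replicate 3 of the AREG group or without replicate 2 or replicate 3 of the PBS group. Of all genes, 9, 6, 6 and 216 were called lower in these settings, in that order. Without replicate 1 of the PBS group, 1 of the 33 and 210 of all genes were called lower. None of the 33 and none of all genes was called without the replicate 1 arrays of both groups, a setting chosen after seeing their narrow spread. All 33 differences still stayed below 0 there, with a median of -0.35. Through the shared estimate of the spread, day 8 arrays moved the count too. It was 1 without replicate 2 and 8 without replicate 3 of the day 8 AREG group, where 239 and 941 of all genes were called lower.

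Macrophage markers moved with the group. Of 14 pan-macrophage markers, 13 were lower with AREG at day 4, against 40.9% of all genes. The test (limma) called 8 of them lower, against 2.11% of all genes, and the median difference was -1.05. Their mean level per array ran from 9.54 to 9.94 with PBS and from 8.58 to 8.94 with AREG, so the groups did not overlap. Of 5 inflammatory monocyte markers, 2 fell (40%), against the same 2.11% of all genes. In bulk muscle, fewer cells of a type and less RNA per cell cannot be told apart. T cell markers averaged 6.49 to 6.58 with PBS and 6.34 to 6.66 with AREG. Plasmacytoid dendritic cell markers averaged 7.88 to 7.99 and 7.75 to 7.96, and none of the 7 was called. Only 3 of the 7 were brighter than the median gene. Whether muscle fibres also express markers of this list was not tested, so these means do not measure the number of these cells. Whether the macrophage markers had a part in the antiviral gene differences was not tested.

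**Figure D2:**
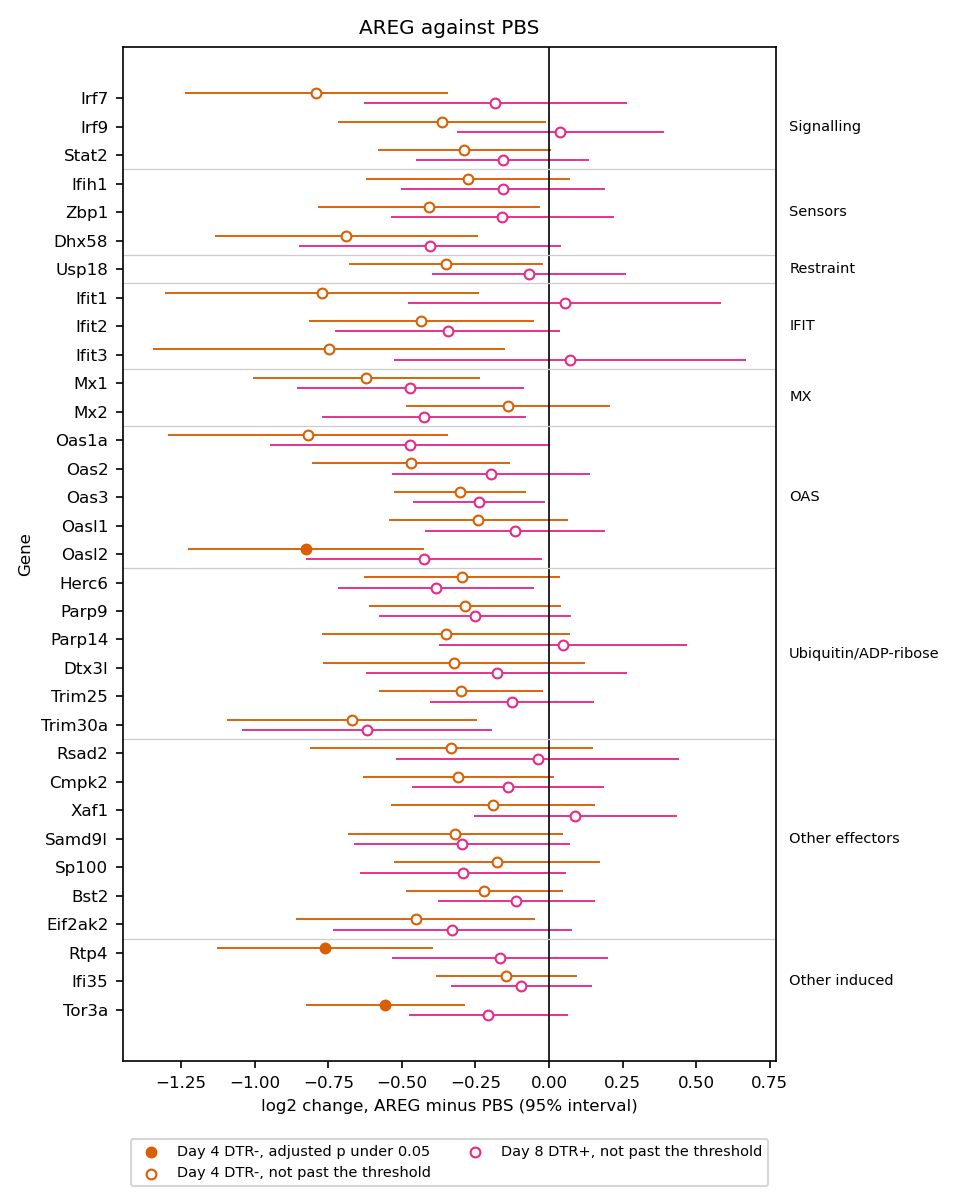
Difference of AREG from PBS in log2 units (x axis) for the 33 antiviral genes, at day 4 in Foxp3-DTR- muscle and at day 8 in Foxp3-DTR+ muscle; bars are 95% intervals and filled points have a limma adjusted p under 0.05. All 33 day 4 points lie below 0 and 3 are filled; 28 of the day 8 points lie below 0 and none is filled.

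In Foxp3-DTR+ muscle at day 8, 28 of the 33 genes had a lower mean with AREG than with PBS and none passed the test (limma), with a median difference of -0.18 beside 0.01 over all genes. Of all genes, 48.8% had a lower mean with AREG. At an unadjusted p under 0.05, 6 of the 33 were lower, against 5.57% of all genes. Only 1 gene of the whole array was called here (0.00506%), and it was none of the 33. The smallest p belonged to Trim30a, with 9.49, 9.34 and 9.63 for PBS and 9.13, 8.93 and 8.54 for AREG. The AREG arrays lay below the PBS arrays, and the difference was -0.62 ± 0.20 (SE; limma adjusted p = 0.599). Next came Mx2 at -0.42, Mx1 at -0.47 and Herc6, an ISG15 ligase in mice, at -0.38 (all limma adjusted p = 0.64). Mx1 read 6.47, 6.23 and 6.81 with PBS and 6.28, 6.22 and 5.60 with AREG, so its groups overlapped and replicate 3 with AREG was lowest.

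The oligoadenylate synthetase family had differences of -0.47 to -0.11 at day 8. Those of the IFIT family were -0.34 for Ifit2, 0.05 for Ifit1 and 0.07 for Ifit3. Irf9, Parp14 and Xaf1 were the other genes with a difference above 0. For 8 of the 33 genes the AREG arrays all lay below the PBS arrays, against 7.14% of all genes. Pan-macrophage markers averaged 9.50 to 9.98 with PBS and 9.71, 9.32 and 8.47 in the AREG replicates, with a median difference of -0.55 and none of the 14 called.

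The AREG difference was further from 0 at day 4 than at day 8 for 30 of the 33 genes and for 56.7% of all genes, and 28 were below 0 in both settings, as were 26.9% of all genes. Tested directly, the difference between the settings (day 8 minus day 4) was called for none of the 33 and for none of all 19752 genes (0%; limma). At an unadjusted p under 0.05, the day 8 value was higher for 2 of the 33 and for 1.78% of all genes. They were Rtp4, at 0.59 ± 0.24 (SE; 95% interval 0.08 to 1.11; limma adjusted p = 0.811), and Ifit1, at 0.82 ± 0.35 (SE; 95% interval 0.07 to 1.58; limma adjusted p = 0.819). The values for Ifit3 and Irf7 were 0.82 ± 0.40 and 0.61 ± 0.30, with intervals that included 0. The AREG effects at day 4 and day 8 are therefore not shown to differ for any of these genes, and the intervals leave differences of more than 1 log2 unit possible for Rtp4, Ifit1, Ifit3 and Irf7.

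Averaged over both settings, 6 arrays against 6, the mean AREG effect was below 0 for all 33 genes and 6 fell past the test, 18.2% of the 33 against 2.99% of all genes. A mean effect below 0 was seen in 42% of all genes. These were Oas1a (-0.65 ± 0.16; limma adjusted p = 0.0388), Trim30a (-0.64 ± 0.14; 0.0266), Oasl2 (-0.63 ± 0.13; 0.0231), Mx1 (-0.55 ± 0.13; 0.0339), Rtp4 (-0.46 ± 0.12; 0.0498) and Tor3a (-0.38 ± 0.09; 0.034), each with its SE. Of these 6, Oas1a and Oasl2 belong to the oligoadenylate synthetase family and Mx1 to the MX GTPases. The Mx1 gene is disrupted in most inbred mouse strains, and its RNA level does not show a working protein. The median over the 33 was -0.28, beside 0.03 over all genes. The count fell to 0 without day 4 AREG replicate 1, day 4 PBS replicate 2, day 8 PBS replicate 1 or day 8 PBS replicate 3. Of all genes, 51, 32, 73 and 60 were called lower in these settings, in that order, against 591 in the reported fit. The count fell to 1 without day 4 AREG replicate 3 or day 4 PBS replicate 3, where 194 and 340 of all genes were called lower. It was 3 without day 8 AREG replicate 2 and 11 without day 4 AREG replicate 2, with 388 and 468 of all genes called lower. Over both settings 10 of the 14 pan-macrophage markers fell, against 2.99% of all genes, with a median of -0.82.

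**Figure D3:**
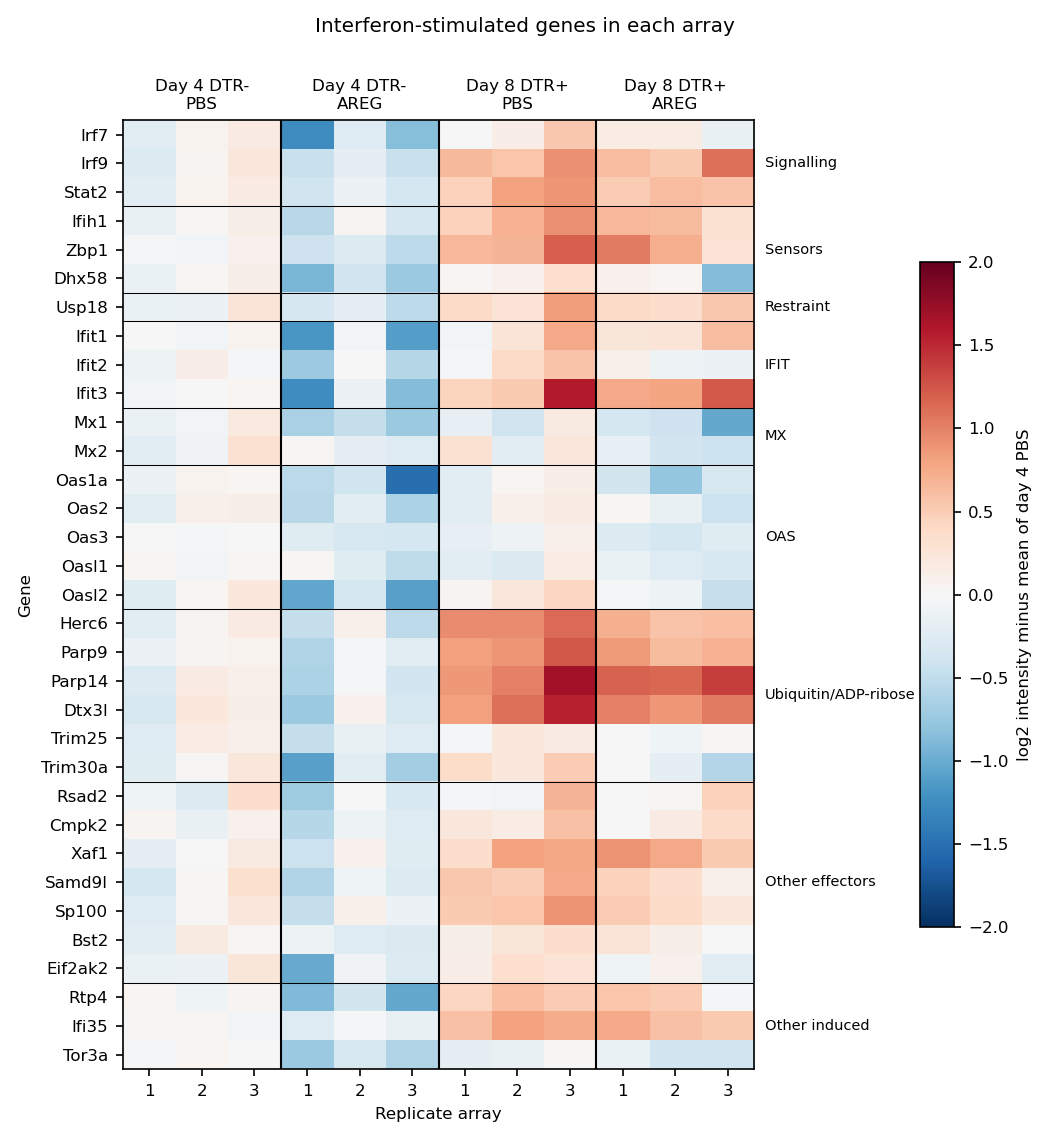
Log2 intensity of the 33 antiviral genes, grouped by role (rows), in the 12 arrays (columns), as the difference from the mean of the day 4 PBS group; red is higher and blue is lower. The day 4 AREG columns of replicates 1 and 3 are blue in most rows, and the day 8 columns are red in the rows of Parp14, Dtx3l, Parp9 and Herc6.

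Between the PBS groups, from day 4 in Foxp3-DTR- to day 8 in Foxp3-DTR+ muscle, 28 of the 33 antiviral genes had a higher mean and 10 rose past the test (limma), against 1.19% of all genes. They were Parp14, Dtx3l, Herc6, Parp9, Zbp1, Stat2, Ifi35, Irf9, Ifih1 and Sp100, with rises of 1.58-fold (Sp100) to 2.29-fold (Parp14). By role, they were 4 of the 6 ubiquitin and ADP-ribose enzymes, 2 of the 3 signalling factors, 2 of the 3 sensors, 1 of the 7 other effectors and 1 of the 3 other induced genes. None of the 5 oligoadenylate synthetase relatives, the 3 IFIT genes or the pair of MX genes was called. The median difference was 0.32 log2 units over the 33 and -0.04 over all genes, of which 41.3% had a higher mean at day 8. In 16 of the 33 all day 8 arrays lay above all day 4 arrays, against 9.17% of all genes.

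Parp14, an ADP-ribosyltransferase of interferon-responsive cells, read 8.09, 8.52 and 8.46 at day 4 and 9.23, 9.37 and 10.04 at day 8. The groups did not overlap, and the rise was 1.19 ± 0.20 (SE, n = 3 and 3; limma adjusted p = 0.00351). Dtx3l, a ubiquitin ligase that works in a complex with PARP9, read 8.00, 8.54 and 8.44 at day 4 and 9.15, 9.43 and 9.86 at day 8, a rise of 1.16 ± 0.21 (SE; limma adjusted p = 0.0066). Its partner Parp9 read 7.85, 8.03 and 8.04 and then 8.79, 8.85 and 9.22, a rise of 0.98 ± 0.15 (SE; limma adjusted p = 0.00232). In each of the 3 genes replicate 3 was the highest day 8 PBS array. Herc6 read 7.49, 7.76 and 7.86 at day 4 and 8.65, 8.65 and 8.84 at day 8, and its rise of 1.01 ± 0.16 (SE; limma adjusted p = 0.00213) had the smallest p of the 33 genes.

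Stat2 read 7.86, 8.16 and 8.25 at day 4 and 8.55, 8.89 and 8.98 at day 8, a rise of 0.72 ± 0.14 (SE; limma adjusted p = 0.0101). Irf9, its DNA-binding partner in ISGF3, read 7.71, 8.03 and 8.20 and then 8.63, 8.53 and 8.89, a rise of 0.71 ± 0.17 (SE; limma adjusted p = 0.0346). Neither gene's groups overlapped. Irf7, in contrast, read 8.61, 8.74 and 9.15 at day 8, within reach of its day 4 values of 8.37, 8.67 and 8.77, and its difference of 0.23 ± 0.21 did not pass the test. Ifi35, an interferon-induced leucine zipper protein, read 7.84, 7.86 and 7.77 and then 8.41, 8.63 and 8.56, a rise of 0.71 ± 0.11 (SE; limma adjusted p = 0.00249). Zbp1, a sensor of Z-form nucleic acid that can trigger necroptosis, read 7.98, 7.96 and 8.11 and then 8.68, 8.69 and 9.21, a rise of 0.84 ± 0.18 (SE; limma adjusted p = 0.0189). The day 4 arrays of both genes were tightly grouped and all lay below the day 8 arrays. Ifih1, the sensor of long double-stranded RNA known as MDA5, rose by 0.69 ± 0.16 (SE; limma adjusted p = 0.0352). Sp100, a nuclear body protein, rose by 0.66 ± 0.16 with a limma adjusted p of 0.04998.

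The oligoadenylate synthetase and MX genes had differences between -0.12 and 0.23. For Oas2 the difference was 0.01 with a 95% interval of -0.32 to 0.35, for Oas1a -0.02 (-0.49 to 0.46), for Oas3 -0.05 (-0.28 to 0.17) and for Mx1 -0.12 (-0.51 to 0.27). The upper bounds for these 4 genes lie below the rises of Herc6, Parp9, Parp14 and Dtx3l, although the difference between the gene groups was not tested. The IFIT genes had larger and less even values, of 0.85 for Ifit3, 0.32 for Ifit1 and 0.31 for Ifit2. Ifit3 read 8.89, 8.95 and 8.99 at day 4 and 9.39, 9.46 and 10.53 at day 8, so the groups did not overlap, but replicate 3 at day 8 stood more than 1 log2 unit above the others (limma adjusted p = 0.172). Xaf1 had a difference of 0.64 (limma adjusted p = 0.052).

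Herc6, Parp9, Parp14, Dtx3l and Ifi35 were called in each of the 21 alternative settings tried, whereas the other 5 were lost in some. The count of 10 became 5 without day 4 PBS replicate 1 or without day 8 PBS replicate 3. It became 6 without day 4 PBS replicate 2 or without day 8 PBS replicate 2. Of all genes, 132, 119, 117 and 163 were called higher in these settings, in that order, against 236 in the reported fit.

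**Figure D4:**
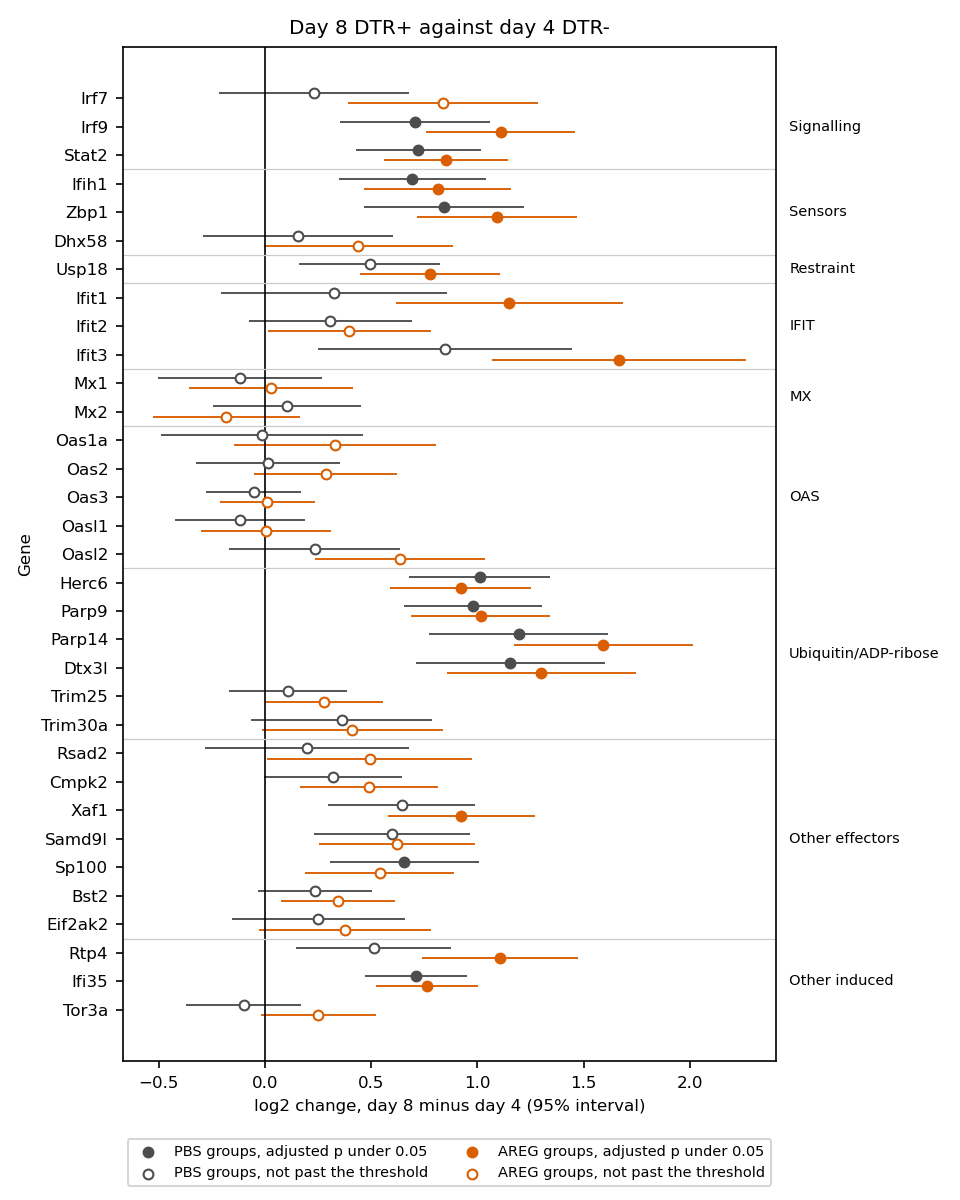
Difference of day 8 Foxp3-DTR+ from day 4 Foxp3-DTR- muscle in log2 units (x axis) for the 33 antiviral genes, in the PBS and the AREG groups; bars are 95% intervals and filled points have a limma adjusted p under 0.05. There are 10 filled points in the PBS groups and 14 in the AREG groups, and no oligoadenylate synthetase or MX gene is filled.

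Between the AREG groups, over the same change of day and genotype, 32 of the 33 genes had a higher mean and 14 rose past the test (limma), against 0.527% of all genes. The lists of the PBS and AREG groups shared 9 genes, which are 90% of the PBS list and 64.3% of the AREG list. The PBS and AREG comparisons use no array in common, though they share the estimate of the spread. The 9 were Parp14, Dtx3l, Herc6, Parp9, Zbp1, Stat2, Ifi35, Irf9 and Ifih1. Parp14 rose by 1.59 ± 0.20 (SE; limma adjusted p = 0.000723), from 7.72, 8.31 and 7.98 to 9.53, 9.51 and 9.74. Irf9 rose by 1.11 ± 0.17 (SE; limma adjusted p = 0.00357), and Stat2 by 0.85 ± 0.14 (SE; limma adjusted p = 0.00646). The median over the 33 was 0.62, beside -0.06 over all genes, of which 34.8% had a higher mean at day 8, and in 20 of 33 the day 8 arrays lay above all day 4 arrays, against 4.2% of all genes.

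The 5 genes called in the AREG groups but not in the PBS groups were Ifit3, Ifit1, Rtp4, Xaf1 and Usp18. Ifit3 read 7.70, 8.82 and 8.07 at day 4 and 9.70, 9.73 and 10.17 at day 8, a rise of 1.67 ± 0.28 (SE; limma adjusted p = 0.00872). Ifit1 read 7.05, 8.16 and 7.12 and then 8.46, 8.48 and 8.84, a rise of 1.15 ± 0.25 (SE; limma adjusted p = 0.0484). In both genes day 4 replicate 2 was more than 0.7 log2 units above the other day 4 arrays. Rtp4 rose by 1.11 ± 0.17 (SE; limma adjusted p = 0.00454), from 7.15, 7.67 and 7.01 to 8.59, 8.54 and 8.01. Xaf1, a pro-apoptotic interferon target, rose by 0.92 ± 0.16 (SE; limma adjusted p = 0.0104), and Usp18 by 0.78 ± 0.15 (SE; limma adjusted p = 0.0278). That these 5 rose more with AREG than with PBS is not shown, since the same interaction test called none of them. The day 4 AREG arrays are also those of the day 4 comparison with PBS above, so the low values of Ifit1, Ifit3 and Rtp4 in them enter both. The oligoadenylate synthetase and MX genes again held no call, with differences from -0.18 (Mx2) to 0.64 (Oasl2). The count of 14 became 8 without day 4 AREG replicate 1 and 9 without day 4 AREG replicate 3. Of all genes, 53 and 63 were called higher in these settings, against 104 in the reported fit. Dtx3l, Ifi35, Irf9, Parp14, Parp9 and Stat2 were called in each of the 21 settings.

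Genes upstream of this response were read from lists of the pathway. Of 18 type I interferon genes, 14 were measured, 2 of them above the median level of genes, and none was called in any of the 6 comparisons (limma). At an unadjusted p under 0.05, 1 of the 14 was higher with AREG at day 8, against 2.05% of all genes, and 1 in the mean of both settings, against 6.27%. Ifnb1, which encodes interferon-beta, read 4.91 to 5.26 in all 12 arrays. The receptor subunit gene Ifnar2 read 9.47, 9.55 and 9.53 with PBS and 8.55, 8.91 and 8.74 with AREG at day 4. The groups were well apart, and Ifnar2 fell by 0.79 ± 0.16 (SE; limma adjusted p = 0.0275). Ifnar1 differed by -0.43 ± 0.15 (limma adjusted p = 0.133). Of the 8 receptor and signalling genes measured, Ifnar2 was the 1 called lower at day 4 (12.5%), against 2.11% of all genes. None of the 8 was called between the days.

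Of 14 genes for the sensing of nucleic acid and induction of interferon, 2 fell with AREG at day 4 (14.3%), against 2.11% of all genes. Sting1, the adaptor for cytosolic DNA, read 8.48, 8.89 and 8.82 with PBS and 7.69, 7.89 and 8.07 with AREG, a fall of 0.85 ± 0.21 (SE; limma adjusted p = 0.0435). Myd88, the adaptor of most Toll-like receptors, read 8.37, 8.46 and 8.59 with PBS and 7.70, 7.56 and 8.02 with AREG, a fall of 0.71 ± 0.18 (SE; limma adjusted p = 0.0435). In both genes all AREG arrays were below all PBS arrays. None of the 14 was called between the days, with 2 higher at an unadjusted p under 0.05 in the PBS groups and 7 in the AREG groups (limma), against 6.2% and 3.97% of all genes. Of 23 further interferon-stimulated genes, 1 fell with AREG at day 4 (4.35%), against 2.11% of all genes. It was Ifitm3, which blocks viral fusion, with a fall of 0.57 ± 0.12 (SE; limma adjusted p = 0.027). A lower mean with AREG was seen in 22 of the 23, against 40.9% of all genes. In 10 of the 23 the AREG arrays lay entirely below the PBS arrays, against 12% of all genes. Between the PBS groups 5 of the 23 rose, against 1.19% of all genes. Gm4951, an interferon-inducible GTPase gene, went from 7.24, 7.23 and 7.56 to 9.92, 10.05 and 10.88.

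The interferon-gamma pathway, which shares part of its targets with type I interferon, also differed between the days. Of 16 genes measured, 13 rose between the PBS groups and 11 between the AREG groups, against 1.19% and 0.527% of all genes. The medians were 1.60 and 1.69 log2 units. Iigp1, a GTPase against intracellular parasites, rose by 4.42 ± 0.23 (SE; limma adjusted p = 4.37e-08) between the PBS groups, from 7.33, 7.34 and 7.53 to 11.54, 11.68 and 12.24. Irf1 went from 7.78, 7.83 and 7.67 to 9.24, 9.30 and 10.08, a rise of 1.78 ± 0.18 (SE; limma adjusted p = 4.99e-05). The ligand gene Ifng went from 6.32, 6.21 and 6.43 to 6.79, 7.07 and 7.77. In each of the 3 genes the day 8 arrays lay above the day 4 arrays, with replicate 3 highest at day 8. At day 4 none of the 16 fell with AREG and 1 rose, against 2.11% and 0.79% of all genes. The median difference was -0.20. The gene that rose was Jak2, by 0.63 ± 0.12 (SE; limma adjusted p = 0.0218).

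Markers of lymphocytes moved with the day 8 groups. T cell markers averaged 6.49 to 6.58 in the day 4 PBS arrays and 7.65 to 8.24 in the day 8 PBS arrays, and 5 of 7 rose (limma). Natural killer cell markers averaged 5.59 to 5.72 and 6.61 to 6.99, and 4 of 6 rose, against 1.19% of all genes called higher. None of these 6 was brighter than the median gene, and 2 of the 7 T cell markers were. In the AREG groups the T cell markers averaged 6.34 to 6.66 at day 4 and 7.94, 7.62 and 6.81 in the day 8 replicates. There 3 of 7 rose, against 0.527% of all genes. The natural killer cell markers averaged 5.56 to 5.74 at day 4 and 6.91, 6.52 and 5.82 in the day 8 replicates, and none of the 6 was called. Pan-macrophage markers averaged 9.54 to 9.94 and 9.50 to 9.98 in the PBS groups, with a median change of -0.04, 7 of the 14 higher, 7 lower and none called. In the AREG groups they averaged 8.58 to 8.94 at day 4 and 9.71, 9.32 and 8.47 in the day 8 replicates. There 13 of the 14 macrophage markers were higher, with a median of 0.45, against 34.8% of all genes. At an unadjusted p under 0.05, 4 were higher (limma), against 3.97% of all genes, and none was called. The part of the lymphocytes, of the macrophages or of the interferon-gamma pathway, in the antiviral gene levels was not tested.

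**Figure D5:**
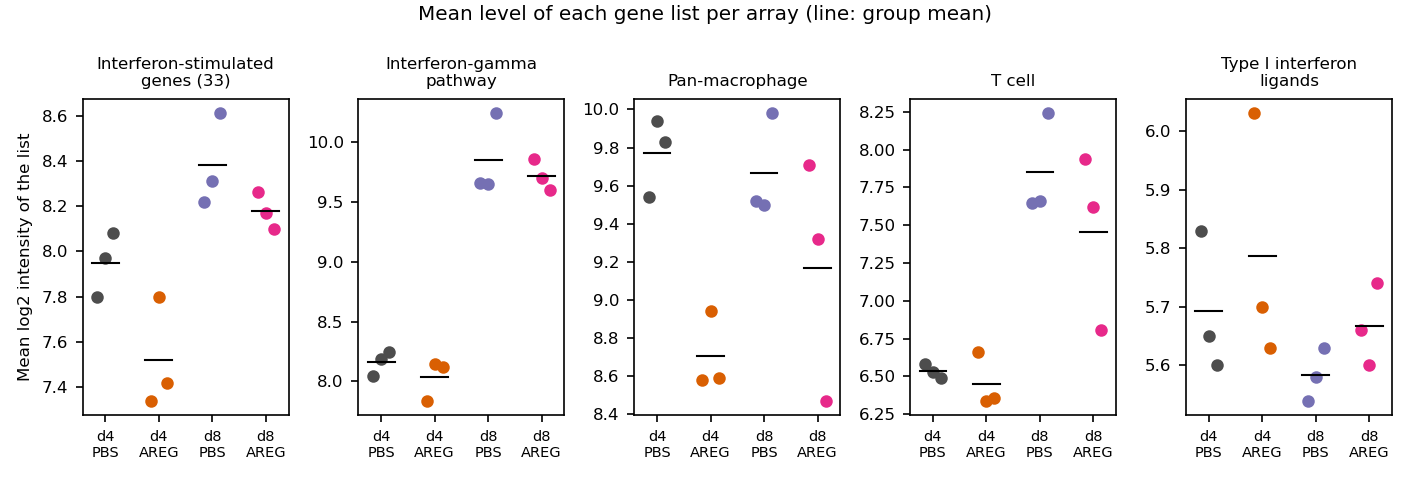
Mean log2 intensity over the genes of each list (y axis) in the 12 arrays, by group, for the 33 antiviral genes, the interferon-gamma pathway, pan-macrophage markers, T cell markers and type I interferon genes; points are arrays and lines are group means. The day 4 AREG arrays are below the day 4 PBS arrays for pan-macrophage markers, and the day 8 PBS arrays are above the day 4 PBS arrays for the interferon-gamma pathway (9.65 to 10.24 against 8.05 to 8.25).

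Averaged over the 33 genes, the arrays read 7.80, 7.97 and 8.08 in the day 4 PBS group, 7.34, 7.80 and 7.42 in the day 4 AREG group, 8.22, 8.31 and 8.61 in the day 8 PBS group and 8.26, 8.17 and 8.10 in the day 8 AREG group. Every day 8 array was above every day 4 array. Within the day 4 AREG group, replicate 2 came level with the lowest PBS array. Within the day 8 PBS group, replicate 3 was the highest array for 27 of the 33 genes, which held for 34% of all genes.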

How the data were processed

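Muscle RNA of 12 samples was hybridised to arrays of the Affymetrix Mouse Gene 1.0 ST type. The deposited values are intensities on a linear scale, made by the authors with Affymetrix Power Tools and RMA, per the submitters' processing notes; neither tool's version is given in the sources used here. They hold no counts, so the number of arrays limits the precision. Of 24922 clusters, 21425 carry 1 gene symbol in the platform annotation, and each gene took its brightest cluster, giving 19752 genes. Probes of families with close copies (Oas1, Ifit, Mx, Trim30) may bind related transcripts.

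No filter and no pseudocount was applied before the log2 step, and 4 group means were fitted to all 12 arrays with limma 3.58.1 in R 4.3.3 (8 residual and 7.1 prior degrees of freedom), two-sided, with Benjamini-Hochberg adjustment over all genes and a threshold of 0.05. The fit was also run on simulated data with independent residuals, which does not cover linked replicates or arrays of uneven quality. Alternatives changed the normalisation, weights, prior, filter, pseudocount, cluster choice, arrays in the fit, block and each array in turn. An exact permutation test of 3 arrays against 3 cannot go below 0.1 and was not used. The antiviral genes and all lists were chosen with earlier results of these data known. Genes were described in full if called (at most the 8 smallest p per comparison), otherwise the 4 smallest p, with fixed lead genes of each role. The labels number replicates 1 to 3 but do not say what a number shares. Differently numbered residuals correlated by -0.486 to 0.27 at day 4. Same-numbered residuals correlated by 0.558, 0.201 and 0.511 there, and from these values alone the numbers were taken as pairs at day 4. They correlated by -0.198, 0.123 and -0.003 at day 8. Between the PBS groups they correlated by -0.117, 0.059 and -0.068, and between the AREG groups by -0.024, 0.262 and -0.027. These values gave no pairing. The replicate block alternative still used the numbers within day 8, and across days for the comparisons between days.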

Additional observations from a re-analysis of the deposited data

How the results depend on the processing

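No called value changed direction under the 21 alternatives, and of 4068 single-gene values 3813 kept their side of the threshold, 151 lost and 104 gained a call. Array quality weights, which ran from 0.167 to 7.43, gave 5305 genes and 22 of the 33 antiviral genes at day 4 (573 and 3 in the reported fit), 1192 and 3 at day 8 (1 and 0), 4902 and 25 for the mean effect (673 and 6), 2232 and 3 for the difference of effects (0 and 0), 1649 genes between the PBS groups (463) and 6676 and 28 between the AREG groups (142 and 14).

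With only the 6 arrays compared, the counts were 938 genes and 5 antiviral genes at day 4, 759 genes between the PBS groups and 86 between the AREG groups. With a pseudocount of 32 they were 358 and 1 at day 4 and 91 genes between the AREG groups, and with genes at or above the median level 5 antiviral genes were called at day 4. The 1 gene called at day 8 became 0 under these 3 settings, renormalised quantiles, the trended and robust prior, the mean of a gene's clusters and the replicate block. With the replicate block, 914 genes and 6 antiviral genes were called at day 4 and 1104 genes for the mean effect; the block moved no other total by more than 1.5 times apart from the 1 gene at day 8. At day 4, 156 genes were higher and 417 lower, which became 324 and 508 with renormalised quantiles, 2785 and 2520 with weights and 305 and 609 with the block. For the mean effect, 82 and 591 became 195 and 479, 2300 and 2602, and 209 and 895.

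Leaving out 1 array in turn gave 9 to 1336 genes and 0 to 8 antiviral genes at day 4, 0 to 1 genes at day 8, 34 to 1488 genes and 0 to 11 antiviral genes for the mean effect, 209 to 719 and 5 to 11 between the PBS groups, and 79 to 458 and 8 to 16 between the AREG groups. Leaving out both day 4 replicate 1 arrays, added after seeing the data, gave 0 and 0 at day 4, 0 genes at day 8, 25 and 0 for the mean effect, 280 and 5 between the PBS groups and 54 and 6 between the AREG groups. With 1 array left out, the median over the antiviral genes stayed between -0.50 and -0.27 at day 4 and between 0.24 and 0.47 between the PBS groups. At day 8 it moved from -0.18 to -0.10 without PBS replicate 3 (23 rather than 28 genes below 0), to -0.28 without PBS replicate 1 and to -0.11 with renormalised quantiles. The causes of these shifts were not tested.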

Other observations

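Within each group 1 array tended to hold the extreme of many antiviral genes. Day 4 PBS replicate 3 was the highest PBS array for 24 of the 33 genes, which held for 32% of all genes. Day 8 AREG replicate 3 was the lowest AREG array for 19 of the 33, against 33.5% of all genes, and it also had the lowest mean of the pan-macrophage (8.47) and T cell (6.81) markers in that group. Yet Irf9 (9.08) and Ifit3 (10.17) had their highest value of the day 8 AREG group in that array.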
